A study of Mus musculus with 12 samples.

Results

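Agrp and Npy encode agouti-related peptide and neuropeptide Y, the feeding-driving peptides of the arcuate nucleus. They were taken as the entries of the deposited count table whose Ensembl identifiers carry these symbols, 2 of 52638 entries, and were followed through all 12 RNA-seq libraries of a mouse study of STAT3 in leptin action. Stat3KO mice carried LepRb-Cre/Cre, Stat3-flox/flox and R26-GFP:L10a/GFP:L10a, and Ctrl mice carried LepRb-Cre/Cre and R26-GFP:L10a/GFP:L10a without a floxed Stat3. Both genotypes were thus homozygous for Cre in the leptin receptor gene and for a ribosomal protein, L10a, fused to GFP. Cre acts wherever the long leptin receptor is or was expressed, so the tagged and targeted cells include many hypothalamic cell types besides AgRP neurons. Hypothalami of adult mice, taken midway through the light phase, were pooled 5 to 8 at a time into 3 pools per genotype. The sex and the exact age are not given in the labels. RNA on GFP-tagged ribosomes was captured on beads (bead-bound, translating ribosome affinity purification), and the RNA left after capture was kept as the supernatant. This gave 4 groups of 3 libraries: Stat3KO bead-bound, Ctrl bead-bound, Stat3KO supernatant and Ctrl supernatant.

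AgRP neurons of the arcuate nucleus make both peptides together with GABA, and they promote feeding. AgRP is an inverse agonist and competitive antagonist of the melanocortin receptors MC3R and MC4R, opposing the melanocortin peptides cut from the Pomc product, whereas NPY acts on its own receptors, chiefly Y1, Y2 and Y5. Fasting raises both transcripts and leptin lowers them. Within the hypothalamus Agrp is nearly confined to AgRP neurons, while Npy is also made by other neurons there and by interneurons elsewhere in the forebrain.

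Agrp (ENSMUSG00000005705) lies on the minus strand of chromosome 8 of GRCm38, the assembly that mm10 names, from 105566698 to 105637393. That span covers all annotated transcripts of the gene: the Agrp-201 transcript runs from 105566698 to 105568298 in 5 exons of 661 bases in all. Of the 1013 exon bases of the gene's 3 annotated transcripts, 114 lie in exons of Ctcf, on the other strand, and of the predicted gene Gm5914, and 0 of these are in Agrp-201. The labels do not state that the library kit keeps strand, so reads over the shared bases could belong to either gene. Ctcf, which encodes a chromatin insulator protein, differed by 0.03 on the log2 scale between Stat3KO and Ctrl bead-bound libraries (SE 0.13, adjusted p = 0.999, edgeR). Npy (ENSMUSG00000029819) lies on the plus strand of chromosome 6, from 49822710 to 49829507, with 1 annotated transcript of 4 exons and 566 bases that shares 0 exon bases with another gene. None of the 612 windows of 50 bases in Agrp-201 or the 517 in the Npy transcript, the length of the study's reads, occurs in an annotated transcript of another gene.

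The sequence just upstream of Npy is shown because the tested changes are in the amount of its RNA. It is the RefSeq sequence of GRCm38.p6 at chr6:49822460-49822709, plus strand, the 250 bases before the annotated start, with a GC box (GGGCGG) and a variant of the TATA element (CATAAA) in capitals.
Npy upstream: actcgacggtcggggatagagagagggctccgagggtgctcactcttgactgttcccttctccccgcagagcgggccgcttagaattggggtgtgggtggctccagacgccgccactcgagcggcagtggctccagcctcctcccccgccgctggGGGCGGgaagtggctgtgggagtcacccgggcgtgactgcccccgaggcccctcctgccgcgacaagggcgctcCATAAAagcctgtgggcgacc
The GC box starts 95 bases and the CATAAA 21 bases before the annotated start. GGGCGG on either strand occurs in 32.7% and CATAAA in 10.8% of the 32851 windows of the same length and placing upstream of annotated genes, and the exact TATAAA, absent here, in 12.4%. The letters of a STAT element, TTCNNNGAA, do not occur in this window, and they occur in 7.02% of all windows. The same holds for the FOXO element TGTTTAC, in 3.17% of windows, for the cyclic AMP response element TGACGTCA, in 1.55%, and for its core TGACG, in 17.8%. The E-box CANNTG, found in 66.2% of windows, is not in it either. Both strands were searched, TGACG lies within TGACGTCA, and these are matches of letters, not measured binding sites. The G and C content of the window is 69.2%, against a median of 52.4% over all windows.

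The library totals ranged from 20743217 to 41829907 counts, and correlations of log2 CPM between replicates of a group ranged from 0.976 to 0.991. Stat3 counts cover the whole gene, not the floxed exons alone: Stat3 was at 114, 149 and 159 CPM (counts scaled to library size) in Stat3KO bead-bound libraries, against 143, 175 and 179 CPM in Ctrl, which overlap (log2 fold change -0.24, SE 0.16, adjusted p = 0.999, edgeR). Within pools, Stat3 was 2 to 2.1 times as high on the beads as in the supernatant in Stat3KO and 2.56 to 3.01 times in Ctrl. The interaction of genotype and fraction, described below, was not called for Stat3. The GFP:L10a transgene was 9.65 to 11.1 times as high on the beads as in the supernatant of the same pool in Stat3KO and 8.37 to 16.8 times in Ctrl. Bead-bound replicate 1 of Stat3KO stands apart: the summed level of 5 endothelial markers was 14 CPM in it, against 125 and 90.5 CPM in Stat3KO replicates 2 and 3 and 46.3, 57.7 and 119 CPM in Ctrl. It also had the highest Agrp and Npy of all libraries, so the fold changes, levels, ranks and correlations that include it are also given without it, as decided once the data had been seen. The part of these markers in the results was not tested. Replicate 1 also had the lowest bead-bound GFP:L10a of its group, 82.3 CPM against 161 and 148 CPM in Stat3KO and 97.5 CPM against 164 and 131 CPM in Ctrl. Ctrl bead-bound replicate 1 departs from its group too: Lepr was at 5.84 CPM in it, against 13 and 13.2 CPM, and Pcsk1n at 1587 CPM, against 685 and 563 CPM. Pools are separate groups of mice, and p-values of genotype comparisons within a fraction measure the spread between pools. Fits of beads against supernatant, and of the interaction, treat the libraries of a pool as separate unless the pool is a block.

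Agrp and Npy were both higher in Stat3KO than in Ctrl bead-bound RNA. Agrp was at 723, 374 and 292 CPM in Stat3KO bead-bound replicates 1, 2 and 3, against 129, 139 and 120 CPM in Ctrl. All 3 Stat3KO libraries lie above all 3 Ctrl libraries, and Stat3KO replicate 1 is the highest. The means were 463 ± 229 CPM in Stat3KO and 130 ± 9.49 CPM in Ctrl (SD, n = 3 each), a 3.58-fold difference (log2 fold change 1.84, SE 0.289, adjusted p = 0.0198, edgeR quasi-likelihood test with Benjamini-Hochberg adjustment). Npy was at 2295, 1255 and 1070 CPM in Stat3KO bead-bound replicates and at 500, 501 and 460 CPM in Ctrl, again without overlap. Its means were 1540 ± 660 CPM in Stat3KO and 487 ± 23.7 CPM in Ctrl (SD, n = 3 each), a 3.16-fold difference (log2 fold change 1.66, SE 0.254, adjusted p = 0.016, edgeR). Of 17354 genes tested, 73, or 0.421%, were called higher, and in 5.1% all 3 Stat3KO libraries lay above all 3 Ctrl libraries. By size of log2 fold change Agrp ranked 91 and Npy 111 among the 17354. In these pools, more cells holding an RNA and more RNA per cell cannot be told apart.

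**Figure D1:**
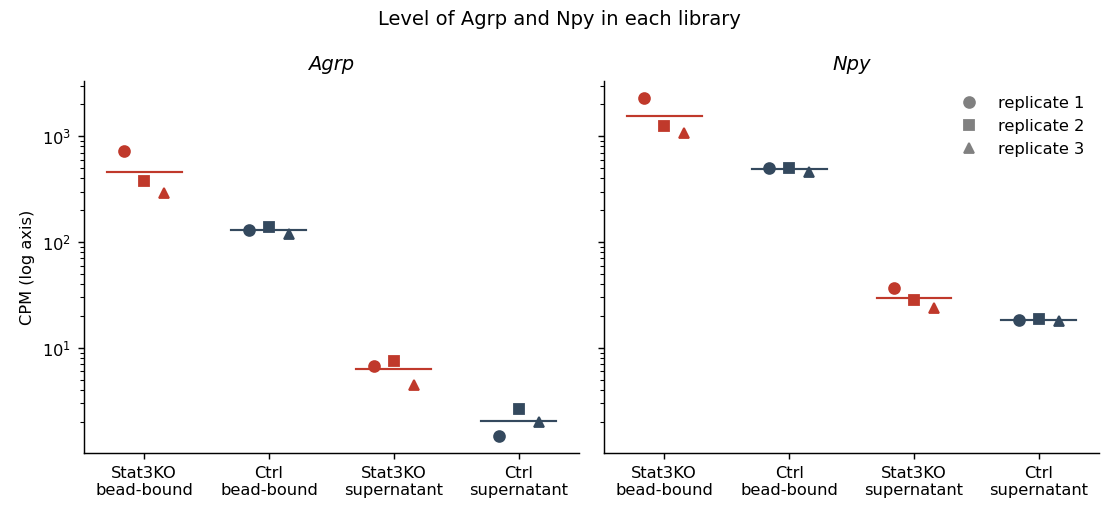
CPM of Agrp (left) and Npy (right) in each library on a log axis, with 3 replicates per group as points and group means as lines. Stat3KO bead-bound libraries lie between 292 and 723 CPM for Agrp and between 1070 and 2295 CPM for Npy, above every Ctrl bead-bound library.

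The genotype difference on the beads was smaller but held without the library that stands apart. Without Stat3KO bead-bound replicate 1 the log2 fold change was 1.37 for Agrp (adjusted p = 0.00199, edgeR) and 1.26 for Npy (adjusted p = 0.00153, edgeR). With replicates 2 and 3 of both genotypes alone, a setting added once the data had been seen, it was 1.34 for Agrp and 1.25 for Npy. Leaving out a Ctrl library hardly moved the log2 fold change, which was 1.83, 1.88 and 1.78 for Agrp and 1.68, 1.67 and 1.62 for Npy without Ctrl bead-bound replicate 1, 2 and 3, but each time both calls were lost. The edgeR adjusted p-values were then 0.0764, 0.0578 and 0.129 for Agrp and 0.0633, 0.053 and 0.106 for Npy.

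The spread among the 3 Stat3KO bead-bound libraries rests largely on replicate 1. The coefficient of variation over 3 libraries was 49.4% for Agrp and 42.9% for Npy in Stat3KO bead-bound RNA, against 7.32% and 4.87% in Ctrl bead-bound RNA. From Stat3KO replicates 2 and 3 alone it was 17.4% for Agrp and 11.2% for Npy. The Stat3KO bead-bound libraries held 23002, 14256 and 10217 Agrp counts, and the Ctrl bead-bound libraries held 3095, 4345 and 4472. In both fractions, Stat3KO replicate 3 had the lowest Agrp and the lowest Npy of its group. In Ctrl bead-bound RNA too, replicate 3 was lowest for both genes.

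By rank of abundance, Npy was at place 29 of 28441 genes with a mean above 0 in Stat3KO bead-bound RNA, against place 302 of 27277 in Ctrl. Agrp was at place 323 in Stat3KO bead-bound RNA and at place 1997 in Ctrl. Without Stat3KO replicate 1, Npy was at place 57 and Agrp at place 527 of 27501 genes in Stat3KO bead-bound RNA. Per kilobase of transcript, Npy was the more abundant RNA in every group. It was at 2721 ± 1166 CPM per kilobase in Stat3KO bead-bound RNA and at 860 ± 41.9 in Ctrl bead-bound RNA, and Agrp was at 701 ± 346 and 196 ± 14.4 CPM per kilobase in the same groups (SD, n = 3 each). Stat3KO bead-bound replicates 2 and 3 alone averaged 2054 ± 230 CPM per kilobase for Npy and 504 ± 87.6 for Agrp (SD, n = 2). In the supernatant Npy was at 52.6 ± 11.6 CPM per kilobase in Stat3KO and 32.3 ± 0.769 in Ctrl, and Agrp at 9.48 ± 2.44 in Stat3KO and 3.08 ± 0.917 in Ctrl (SD, n = 3 each).

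In the supernatant Agrp was scarce and Npy was well below its level on the beads, and neither genotype difference passed the edgeR test. Agrp was at 6.76, 7.57 and 4.46 CPM in Stat3KO supernatants and at 1.46, 2.67 and 1.98 CPM in Ctrl supernatants. The groups do not overlap, but the Ctrl values rest on 33, 106 and 83 counts, for which counting error alone is 9.71% to 17.4%. The difference was 3.02-fold (log2 fold change 1.59, SE 0.254, adjusted p = 0.0895, edgeR), and Agrp ranked 21 of 18547 genes by log2 fold change. Npy was at 36.8, 28.6 and 23.9 CPM in Stat3KO supernatants and at 18.3, 18.7 and 17.8 CPM in Ctrl supernatants, a 1.63-fold difference without overlap (log2 fold change 0.70, SE 0.151, adjusted p = 0.329, edgeR). In 6.4% of the genes tested here, all 3 Stat3KO libraries lay above all 3 Ctrl libraries. The edgeR test called 0% of genes higher and 0.0108%, or 2 genes, lower, while 388 genes were higher and 761 lower at an unadjusted p below 0.05. DESeq2 called 13 genes higher, Agrp (adjusted p = 1.07e-05) and Npy (adjusted p = 0.00951) among them, and 28 lower. Without Stat3KO supernatant replicate 3, edgeR too called Agrp (adjusted p = 0.0354). The sum of 6 oligodendrocyte markers was 3078 to 3797 CPM in Stat3KO supernatants and 4034 to 5369 CPM in Ctrl, and that of 5 astrocyte markers was 270 to 343 CPM in Stat3KO and 391 to 462 CPM in Ctrl. The sum of 5 microglial markers was 43.9 to 59.6 CPM in Stat3KO supernatants and 65.2 to 74.6 CPM in Ctrl. None of the 3 pairs of ranges overlaps, but how often sums of other genes separate in this way was not counted. The part of these markers in the supernatant differences was not tested.

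Both RNAs were strongly concentrated on the beads in both genotypes. Within the 3 Stat3KO pools, bead-bound Agrp was 107, 49.4 and 65.4 times its supernatant level, and within the 3 Ctrl pools 88.3, 52.2 and 60.7 times. The pools of the genotypes overlap for Agrp. The fitted log2 fold change of bead-bound over supernatant was 6.18 in Stat3KO (SE 0.389, adjusted p = 2.42e-05, edgeR) and 5.96 in Ctrl (SE 0.206, adjusted p = 5.19e-06, edgeR). Bead-bound Npy was 62.3, 43.9 and 44.8 times its supernatant level in Stat3KO pools and 27.3, 26.8 and 25.8 times in Ctrl pools, which do not overlap. How many of all genes have pool ratios that do not overlap between genotypes was not counted. The log2 fold change of Npy was 5.68 in Stat3KO (SE 0.332, adjusted p = 1.92e-05, edgeR) and 4.74 in Ctrl (SE 0.11, adjusted p = 5.64e-07, edgeR). Without Stat3KO bead-bound replicate 1, the log2 fold changes in Stat3KO were 5.71 for Agrp and 5.28 for Npy, both still called. The test called 14.7% of 18107 genes higher and 17.3% lower on the beads in Stat3KO, and 20.7% of 18036 higher and 21.2% lower in Ctrl. All 3 bead-bound libraries lay above all 3 supernatants, as for Agrp and Npy, in 23.9% of genes in Stat3KO and 26.1% in Ctrl. In Ctrl, Agrp had the highest log2 fold change of all genes tested and Npy ranked 5, with Pomc, Prlh (prolactin-releasing hormone) and Npw (neuropeptide W) between them, named after their values were seen. In Stat3KO, Agrp ranked 3 and Npy 6. The 4 other genes of the first 6 in Stat3KO, Olfr56, Tgtp2, Apol10b and Tgtp1, also named after their values were seen, averaged 0.683 to 3.75 CPM on the beads, against 463 CPM for Agrp. Tgtp1 and Tgtp2 are interferon-induced GTPases.

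**Figure D2:**
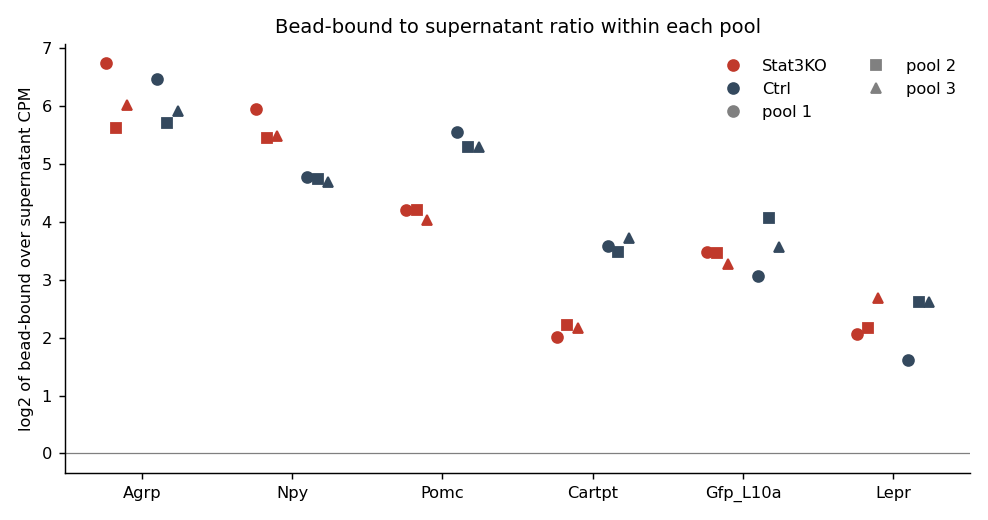
The log2 ratio of bead-bound over supernatant CPM within each of 3 pools per genotype, for Agrp, Npy, Pomc, Cartpt, the GFP:L10a transgene and Lepr, 1 point per pool. Npy ratios of Stat3KO pools (43.9 to 62.3 on the linear scale) lie above those of Ctrl pools (25.8 to 27.3), while Agrp ratios of Stat3KO pools (49.4 to 107) and Ctrl pools (52.2 to 88.3) overlap. The share of all genes whose ratios separate in this way was not counted.

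Whether the bead-bound to supernatant ratio itself differed between genotypes was tested as an interaction over all 12 libraries. For Npy the ratio was 1.94-fold higher in Stat3KO (log2 difference 0.95, SE 0.322, unadjusted p = 0.0101, adjusted p = 1, edgeR), which did not pass. Fitted with the pool as a block, which pairs the bead-bound and supernatant library of each pool, the Npy difference was 0.90 (SE 0.135) and passed (adjusted p = 0.0105, edgeR). With the block and without Stat3KO pool 1 it was 0.73 (SE 0.102) and still passed (adjusted p = 0.00289, edgeR), whereas the call was lost without Ctrl pool 2 (0.91, adjusted p = 0.0764) or Ctrl pool 3 (0.88, adjusted p = 0.0615). Without the block, the Npy difference was 0.55 when Stat3KO bead-bound replicate 1 was left out. For Agrp the log2 difference without the block was 0.24 (SE 0.428, adjusted p = 1, edgeR), with a sign that turned to -0.24 without Stat3KO bead-bound replicate 1 and to -0.01 without Ctrl supernatant replicate 2. The blocked fit of all pools called 55 of 19122 genes higher and 4 lower. The fit without the block called 0.193% of 19122 genes higher and 0.0105% lower, and Pomc, the melanocortin precursor of the neighbouring neurons, was lower (log2 difference -1.22, SE 0.219, adjusted p = 0.0352, edgeR). The Pomc call was kept in 4 and lost in 8 of the 12 fits that left out 1 library (edgeR adjusted p = 0.0261 to 0.141): it was lost without Ctrl bead-bound replicate 1 or 2, Ctrl supernatant replicate 1 or 3, Stat3KO bead-bound replicate 2 or 3, and Stat3KO supernatant replicate 1 or 2. Those 12 fits did not pair the libraries of a pool, and the blocked fit of Pomc is not given here. DESeq2, also without the block, called 59 genes higher and 3 lower, with Pomc and Cartpt among those lower. Within pools, the Pomc ratios were 16.5 to 18.6 in Stat3KO and 39.2 to 47 in Ctrl.

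The balance of the peptides to each other overlapped between genotypes on the beads and differed between fractions. For each Npy count there were 0.315, 0.298 and 0.273 Agrp counts in Stat3KO bead-bound libraries and 0.258, 0.278 and 0.262 in Ctrl bead-bound libraries, which overlap. The log2 difference was 0.15 (two-sided exact permutation test, p = 0.2, where 3 libraries against 3 allow no p below 0.1). In the supernatant the ratio was 0.184, 0.265 and 0.187 in Stat3KO, against 0.0799, 0.143 and 0.111 in Ctrl, without overlap. The log2 difference was 0.95, or 1.93-fold (exact permutation p = 0.1, the smallest possible).

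Across the 6 pools the Agrp to Npy ratio was higher on the beads than in the supernatant in 6 of 6, by 0.90 on the log2 scale or 1.86-fold (two-sided exact sign-flip permutation test, p = 0.03125, the smallest that 6 pools allow). The bead minus supernatant difference in log2 ratio averaged 0.50 ± 0.31 in Stat3KO pools and 1.30 ± 0.37 in Ctrl pools (SD, n = 3 each; exact permutation p = 0.1, the smallest possible). As a share of both, Agrp made up 7.4% of 446 counts in Ctrl supernatant replicate 1, with a 95% Clopper-Pearson interval of 5.15% to 10.2% that covers counting error only. In Stat3KO supernatant replicate 3 it made up 15.7% of 718 counts (13.2% to 18.6%). The other supernatants held 829 to 1728 such counts, and the bead-bound libraries 15084 to 96006.

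**Figure D3:**
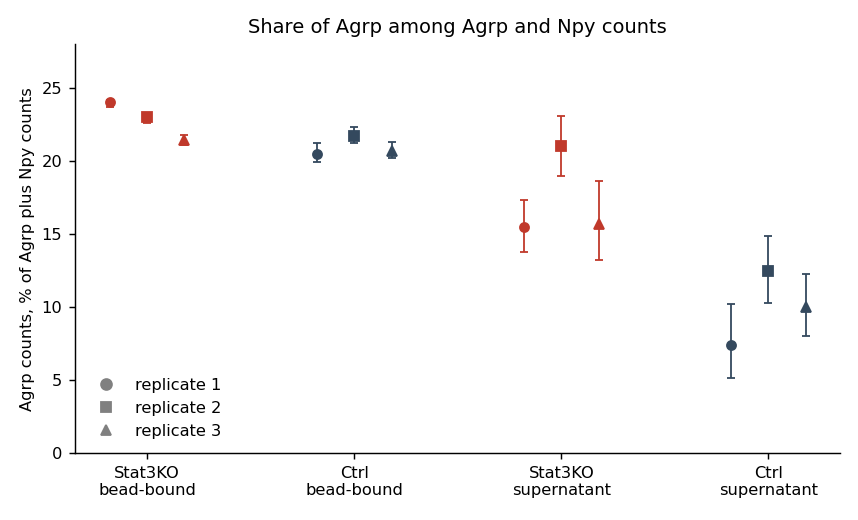
Agrp counts as a percentage of Agrp plus Npy counts in each library, with 95% Clopper-Pearson intervals for counting error, in 4 groups of 3 replicates. Stat3KO bead-bound (21.4% to 24%) and Ctrl bead-bound libraries (20.5% to 21.7%) overlap, and Stat3KO supernatants (15.5% to 21%) lie above Ctrl supernatants (7.4% to 12.5%).

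Set against Pomc, whose peptides act in opposition to AgRP, the balance on the beads did not overlap between genotypes. These ratios restate the higher Agrp and Npy and the lower Pomc of the same libraries, and are no separate evidence. How many other gene pairs have ratios that do not overlap was not counted. There were 5.08, 2.7 and 2.88 Agrp counts for each Pomc count in Stat3KO bead-bound libraries and 0.249, 0.242 and 0.256 in Ctrl. For Npy the ratio to Pomc was 16.1, 9.07 and 10.6 in Stat3KO bead-bound libraries, against 0.964, 0.871 and 0.979 in Ctrl. Every Stat3KO bead-bound library held more Agrp than Pomc counts, and every Ctrl bead-bound library held fewer. Pomc and Cartpt, which encodes the appetite-lowering CART peptide, were both lower in Stat3KO bead-bound RNA (log2 fold changes -2.03, SE 0.171, and -1.56, SE 0.206; adjusted p = 0.000166 and 0.0056, edgeR), 2 of the 0.0288% of genes called lower.

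Of 10 AgRP neuron markers tested, Agrp and Npy were the 2 called higher in Stat3KO bead-bound RNA, and the other 8 were not called. The median log2 fold change of the 10 was 0.01, against -0.01 over all genes tested. Otp, a homeodomain factor of developing hypothalamic neurons, was at 204, 157 and 201 CPM in Stat3KO, against 180, 136 and 152 CPM in Ctrl (0.27, SE 0.157, adjusted p = 0.999, edgeR). Ghsr, the ghrelin receptor, was at 14.8, 14.6 and 13 CPM in Stat3KO, against 6.88, 11.7 and 15.3 CPM in Ctrl, which overlap. Corin, a serine protease, differed by -0.06 (SE 0.232), Bsx, a homeodomain activator of Agrp and Npy, by 0.08 (SE 0.164), and Acvr1c, a receptor of the activin family, by -0.15 (SE 0.22) on the log2 scale. Npy2r, the presynaptic Y2 receptor, was lower in value without passing (-0.65, SE 0.228, adjusted p = 0.973, edgeR). Calcr, the calcitonin receptor, differed by -0.27 and Sst, somatostatin, by -0.59, neither of them called. The summed level of these 8 markers was 426 to 575 CPM in Stat3KO bead-bound libraries and 496 to 585 CPM in Ctrl, which overlap. Most of the 10 were enriched on the beads: the test called 8 higher in Stat3KO, against 14.7% of all genes tested, and 9 in Ctrl, against 20.7%. Both counts include Agrp and Npy themselves, and the list was chosen with earlier results of these data known. Besides these 2 genes, Corin, Otp, Ghsr, Npy2r, Calcr and Bsx were called in both genotypes. Acvr1c was called in neither, and Sst was called in Ctrl. Sst and several of the others are also expressed outside AgRP neurons.

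**Figure D4:**
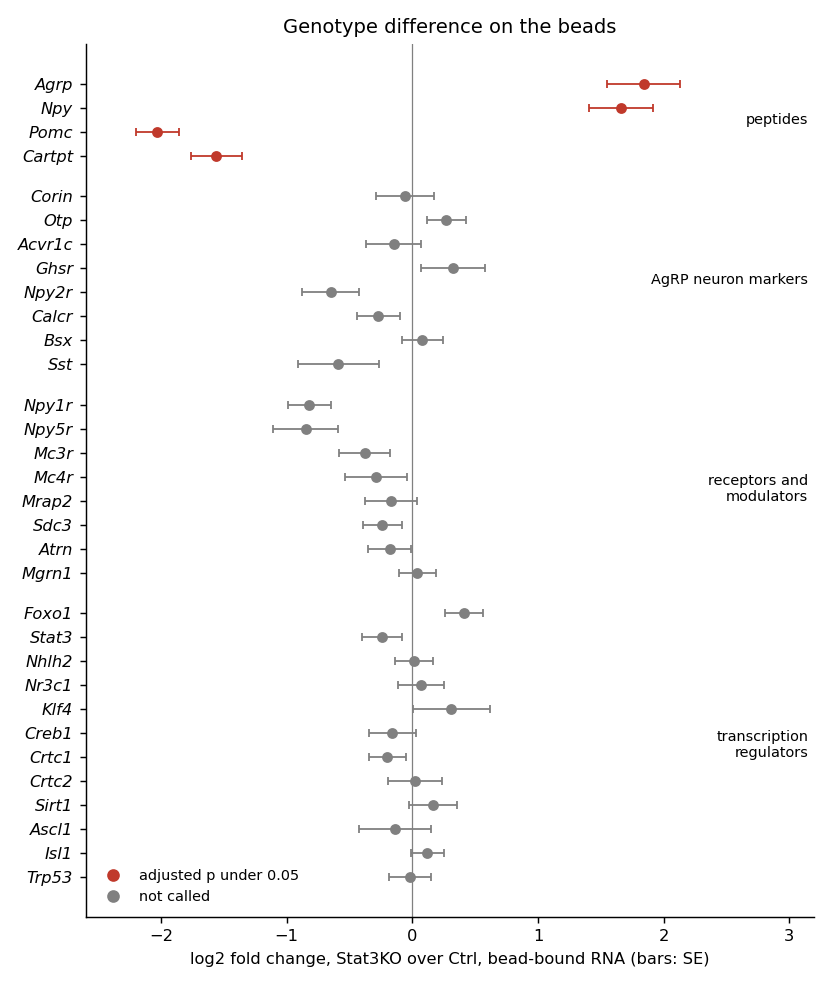
Log2 fold change of Stat3KO over Ctrl in bead-bound RNA with its SE (bars), for 4 feeding peptides, 8 other AgRP neuron markers, and receptors and regulators tied to Agrp or Npy. The 4 peptides are the genes here past an adjusted p of 0.05: Agrp (1.84) and Npy (1.66) lie above 0, and Pomc (-2.03) and Cartpt (-1.56) below.

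The genes of the GABA machinery, which AgRP neurons share with many others, were not called between genotypes. Slc32a1, the vesicular GABA transporter, differed by -0.26 (SE 0.168), Gad1 by 0.03 (SE 0.136) and Gad2 by 0.08 (SE 0.172) on the log2 scale between Stat3KO and Ctrl beads, with the 2 Gad genes encoding the enzymes of GABA synthesis. None of the 3 was called by edgeR or DESeq2, and 0 had an unadjusted p below 0.05. The dissected block could include Npy neurons outside the hypothalamus. The sum of 5 genes listed as their markers (Lamp5, Nos1, Chodl, Ndnf and Reln) was 129 to 174 CPM in Stat3KO bead-bound and 145 to 210 CPM in Ctrl bead-bound libraries. It was 139 to 156 CPM in Stat3KO and 134 to 189 CPM in Ctrl supernatants. Most of it was Nos1, with bead-bound means of 112 CPM in Stat3KO and 131 CPM in Ctrl. These sums cannot tell whether such neurons were in the block, and their part in the Npy levels was not tested.

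Of 11 genes for receptors and modulators of the peptides, 9 were tested in bead-bound RNA and 0 passed the edgeR test between genotypes. At an unadjusted p below 0.05 there were 3, against 365 higher and 348 lower among all 17354 genes tested. DESeq2 called 1 of the 9, Npy1r, lower, and among all genes 100 higher and 14 lower. The median log2 fold change of the 9 was -0.29, against -0.01 over all genes, and 8 of 9 were below 0. Lists of unrelated genes lay as low on the beads: the median was -0.32 for oligodendrocyte, -0.38 for microglial and -0.27 for astrocyte markers. It was 0.06 for endothelial and 0.03 for GABA neuron markers. The low median is thus not particular to the receptor list, and the share of all genes below 0 was not counted. Npy1r, the postsynaptic Y1 receptor, was at 15, 16 and 13.6 CPM in Stat3KO bead-bound libraries, against 22.7, 25.1 and 30.9 CPM in Ctrl, without overlap (-0.82, SE 0.169, adjusted p = 0.108, edgeR). The share of all genes whose Stat3KO libraries all lay below the Ctrl libraries was not counted. Npy5r, the Y5 receptor, was at 4.5, 6.19 and 5.18 CPM in Stat3KO, against 6.63, 12.6 and 9.36 CPM in Ctrl (-0.85, SE 0.256, adjusted p = 0.695, edgeR). The melanocortin receptors, on which AgRP acts, differed less: Mc3r by -0.38 (SE 0.205) and Mc4r by -0.29 (SE 0.25), neither called. Mrap2, an accessory protein of the melanocortin receptors, differed by -0.17 and Sdc3, syndecan 3, a cell surface proteoglycan that binds AgRP, by -0.24. Npy4r and Npy6r were too low to test, with means of 0.055 and 0 CPM in Stat3KO bead-bound and 0.175 and 0.0278 CPM in Ctrl bead-bound libraries.

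Of the 9 receptor and modulator genes tested, 3 were higher and 1 lower on the beads than in the supernatant in Stat3KO, where 14.7% of all genes were higher and 17.3% lower. In Ctrl, 6 of the 9 were higher, against 20.7% of all genes. Mc3r was 4.82-fold higher on the beads in Stat3KO (adjusted p = 0.000137, edgeR) and 5.62-fold in Ctrl (adjusted p = 9.73e-05, edgeR). Npy1r was 1.84-fold higher on the beads in Ctrl (adjusted p = 0.00212, edgeR) and was not called in Stat3KO (1.08-fold, adjusted p = 0.624, edgeR). The difference of these Npy1r ratios did not pass (log2 difference -0.76, SE 0.226, adjusted p = 0.879, edgeR).

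Genes that process and clear the peptides were likewise not called between genotypes. Of 13 tested on the beads, 0 passed between genotypes by edgeR or DESeq2, and 12 were below 0, with a median log2 fold change of -0.27. At an unadjusted p below 0.05 there were 2, against 365 higher and 348 lower among all 17354 genes tested. The median of -0.27 is of like size to those of the glial marker lists on the beads given above. Pcsk1, the prohormone convertase that cuts both precursors, differed by -0.42 (SE 0.28). Its inhibitor Pcsk1n was at 679, 562 and 414 CPM in Stat3KO, against 1587, 685 and 563 CPM in Ctrl, which overlap. It differed by -0.78 (SE 0.346, adjusted p = 0.999, edgeR), and by -0.18 (SE 0.206) without Ctrl bead-bound replicate 1. Cpe, the carboxypeptidase that trims the cut ends, differed by -0.08 (SE 0.192), and Pam, which amidates NPY, by -0.27 (SE 0.207). Vgf, a granin-like secretory protein, was lower in value (-0.49, SE 0.146, adjusted p = 0.672, edgeR). On the beads against the supernatant, 7 of the 13 were higher and 1 lower in Stat3KO (14.7% and 17.3% of all genes), and 9 were higher and 1 lower in Ctrl (20.7% and 21.2% of all genes).

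None of 14 transcription regulators tied to Agrp or Npy was called between genotypes on the beads by edgeR or DESeq2. Only 1, Foxo1, had an unadjusted p below 0.05, against 365 higher and 348 lower among all 17354 genes tested. FOXO1 binds the Agrp promoter and raises its transcription, opposing STAT3. Foxo1 was at 61.9, 59 and 69.5 CPM in Stat3KO bead-bound libraries, against 41.1, 47.3 and 55 CPM in Ctrl, without overlap (0.41, SE 0.153, adjusted p = 0.999, edgeR). Klf4, a zinc-finger activator of Agrp, differed by 0.31 (SE 0.308), Nr3c1, the glucocorticoid receptor, by 0.07 (SE 0.182), Isl1, a LIM homeodomain factor of arcuate neurons, by 0.12 (SE 0.133) and Nhlh2, a basic helix-loop-helix factor, by 0.01 (SE 0.152). Of 15 receptors and sensors through which signals reach AgRP neurons, 0 were called by either tool and 0 had an unadjusted p below 0.05. Lepr, the leptin receptor, differed by 0.10 (SE 0.285) and Insr, the insulin receptor, by -0.05 (SE 0.23). In the supernatant, 0 genes of these 4 lists were called between genotypes by edgeR or DESeq2. At an unadjusted p below 0.05 were 1 receptor, 1 regulator and 1 input gene, against 388 higher and 761 lower among all 18547 genes tested.

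The paralogs of Npy, Pyy and Ppy, which encode the gut and pancreatic peptides of the family, had 0 counts in all 12 libraries, which allows up to 3 counts, or 0.0717 to 0.145 CPM, in each. Asip, the agouti gene to which Agrp is related, was not analysed here.

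The levels of Agrp and Npy were correlated across libraries. The Pearson correlation of their log2 CPM was 0.994 over 12 libraries, which span both fractions, and 0.82 for deviations from the group means over the same 12. Among 15261 genes ranked by correlation with the mean of both, the closest over 12 libraries were Rerg (0.995), Fam216a (0.993), Usp27x (0.992), Psme1 (0.992) and Rpl7 (0.987). The correlation takes no account of size: Rerg, a small GTPase, differed between genotypes on the beads by 0.21 on the log2 scale and between beads and supernatant in Ctrl by 0.95. By deviations from the group means, the closest were Ogfod3 (0.983), Cldn23 (0.961), Chga (0.961), Kirrel3 (0.959) and Rnft2 (0.958). Chga encodes chromogranin A of secretory granules, and none of these 5 was called between genotypes on the beads. These correlations share the same libraries. Over the 11 libraries without Stat3KO bead-bound replicate 1, the correlation of Agrp with Npy was 0.992, and 0.556 for deviations from the group means. Rerg and Ogfod3 were still the closest gene by each measure, at 0.995 and 0.948, while Rpl7 ranked 15 and Chga 21.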

How the data were processed

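Counts per gene were deposited by the authors as whole numbers in 1 table of 52638 entries, of which 2 are transgenes. Per the submitters' processing notes, reads were aligned with STAR 2.5.3a to mm10; neither the counting tool nor the annotation is given in the sources used here. Per the labels, libraries came from poly(A) RNA and were read in single 50-base reads.

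Symbols came from GENCODE release M21 for GRCm38 (52403 identifiers matched, 233 did not). Transcript 201 of each gene set its length. The members and gene lists were chosen with earlier results of these data known. Genes named besides Agrp and Npy are list members the 5 genes closest in pattern by each of 2 correlations, and 6 genes that rank beside the members on the beads, named after their values were seen, besides genes that check the libraries.

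Genotypes were compared within a fraction, and fractions within a genotype, each on its own 6 libraries, and the interaction was fitted on all 12. The test was edgeR 4.0.16 (R 4.3.3) with quasi-likelihood, TMM scaling, a minimum count of 10 (total 15) and Benjamini-Hochberg adjusted p under 0.05. CPM used TMM factors over 12 libraries, and log2 CPM had a prior count of 2. Bead-bound and supernatant libraries with the same number come from the same pool, and their deviations from the group means correlated at 0.196 to 0.367 in all 6 pools. Ratios of 2 genes were compared by exact permutation. The edgeR fit was tested on simulated data. Alternatives were DESeq2 1.42.0, its size factors, no filter, blocks, omitted libraries and, added after seeing the data, replicates 2 and 3 alone and blocks with a pool left out.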

Additional observations from a re-analysis of the deposited data

How the results depend on the processing

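Of 231 values recomputed under an alternative, 184 kept their direction and side of the threshold (a count of genes stayed within 1.5 times, an untested ratio within 1 SD), and 47 did not. Some of these outcomes were fixed beforehand. The 47 include the 6 tests of the Agrp to Npy ratio between fractions with a pool left out, which allow no sign-flip p below 0.0625. The ratio between genotypes allows no exact permutation p below 0.1 and could not cross the threshold. On the beads the genotype comparison called 78 genes, against 183 with no low-count filter and 1167 (273 higher and 894 lower) with replicates 2 and 3 alone. Leaving out 1 library gave 58 to 82 genes, adjusted p-values of 0.00199 to 0.129 for Agrp and of 0.00153 to 0.106 for Npy. In the supernatant it called 2 genes, against 41 by DESeq2, 203 with no filter, 4 with the replicate block and 988 with replicates 2 and 3 alone, and 2 to 43 with 1 library left out. There the adjusted p-value of Agrp was 1.07e-05 by DESeq2, 1.44e-10 with no filter, 0.0109 with replicates 2 and 3 alone and 0.0354 to 0.469 with 1 library left out. That of Npy was 0.00951, 0.000178, 0.0159 and 0.13 to 1 under the same settings in turn.

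Beads against supernatant in Stat3KO called 5804 genes, 8999 with the pool as replicate block and 2879 (without Stat3KO supernatant replicate 2) to 6410 with 1 library left out. In Ctrl it called 7564, and 4866 (without Ctrl supernatant replicate 2) to 8813. The calls on Agrp and Npy held throughout in both genotypes. The interaction called 39 genes, 62 by DESeq2, 97 with no filter, 59 with the pool as block and 24 to 35 with 1 library left out. Npy passed it with the block (0.0105) and with no filter (0.00253), and its adjusted p was 0.471 to 1 with 1 library left out. With the block and 1 pool left out, settings added after seeing the data, the adjusted p of Npy was 0.0197 without Ctrl pool 1, 0.0764 without Ctrl pool 2, 0.0615 without Ctrl pool 3, and 0.00289, 0.0115 and 0.0269 without Stat3KO pool 1, 2 and 3. Without Stat3KO pool 1 the blocked interaction called 61 genes, and the sign for Agrp turned (-0.16, adjusted p = 0.866). Without the block, the sign for Agrp reversed without Ctrl supernatant replicate 2 (adjusted p = 1), without Stat3KO bead-bound replicate 1 (adjusted p = 0.999) and with replicates 2 and 3 alone (-0.07, adjusted p = 0.991). The Agrp to Npy log2 ratio between fractions was 0.74 to 1.04 with 1 pool left out, where 5 pools allow no p below 0.0625. The causes of these changes were not tested.

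The genotypes share only replicate numbers: same-numbered libraries of a fraction correlated at -0.0851 to 0.141 in their deviations from the group means. With that number as a block, the adjusted p-values on the beads were 0.0165 for Agrp and 0.0122 for Npy, and in the supernatant 0.131 and 0.281.

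In the supernatant, Agrp rests on 33 to 328 counts per library.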
